A study of Mus musculus with 48 samples.

Results

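RNA of the tibialis anterior, the muscle at the front of the shin, was compared between newborn mice labelled MyH3delta/delta (knockout, KO) and mice labelled MyH3+/+ (wild type, WT). All animals were C57BL/6 at postnatal day 0, and no drug or other agent is named. The comparison took 12 of the 48 libraries, 6 per genotype, and all 15821 genes in the deposited tibialis anterior table, of which 14383 had enough counts to be tested. The remaining 36 libraries, from the quadriceps, gastrocnemius and diaphragm, served to test whether a change differed from that in other muscles. Levels are CPM values (counts scaled to the library total) after TMM adjustment of the totals. A change is the log2 ratio of KO to WT with its standard error, from the quasi-likelihood test of edgeR. Its p was adjusted by Benjamini-Hochberg over all tested genes, and a gene passed at 0.05. The labels do not say whether samples of a genotype came from different litters, so p-values measure the spread between these samples.

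Myh3 encodes embryonic myosin heavy chain, a motor protein of the thick filament that developing fibres use before birth and then replace by the perinatal form (Myh8) and the adult forms. Around birth the fibres of a limb muscle also separate into slow ones, which use the slow myosin Myh7 and a matching set of light chains, troponins and tropomyosin, and fast ones. The tibialis anterior becomes a mostly fast muscle in the adult mouse.

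Total counts ran from 11.9 M to 21.6 M, with medians of 16.8 M in KO and 16.2 M in WT. Muscle fibre markers were abundant in all libraries: the 10 fibre genes summed to between 45413 and 48699 CPM in KO and between 45021 and 51223 CPM in WT. KO columns 0 and 1 stood apart. On the first principal component, which held 33.0% of the variance of the 500 most variable genes, both lay at -16.4, while the other 4 KO libraries lay between 8.09 and 18.1 and the WT libraries between -9.89 and 1.68. The 9 measured liver markers summed to 111.5 and 119.8 CPM in these 2 libraries, against 20.9 to 38.7 CPM in the other KO libraries and 20.6 to 51.9 CPM in WT. Their part in the results was not tested beyond the values without them, which stand beside the results below. Xist and the Y-linked genes put 2 KO libraries and 1 WT library on the male side.

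**Figure D1:**
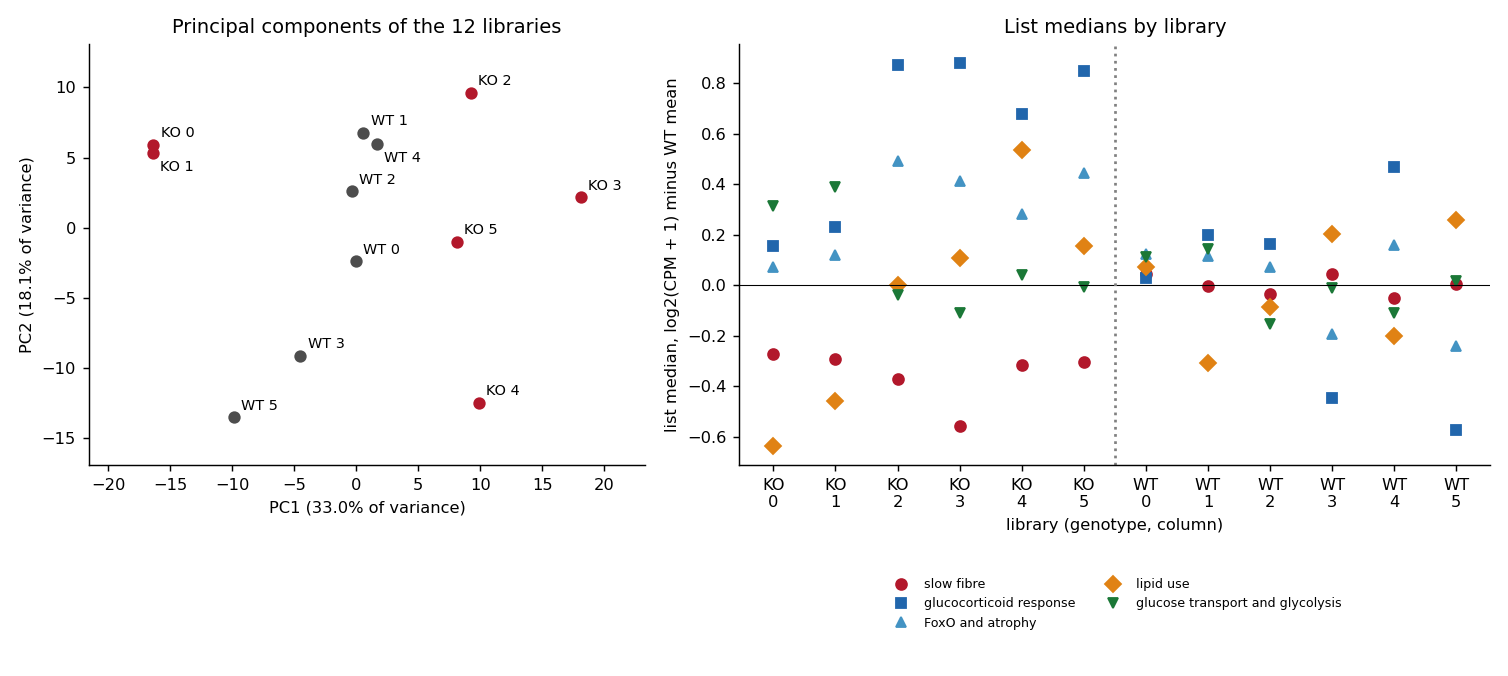
The left panel plots the 12 libraries on the first 2 principal components of log2 CPM (33.0% and 18.1% of the variance), and the right panel plots the median log2 level of 5 gene lists in each library, relative to the WT mean. KO columns 0 and 1 lie apart from the other 4 KO libraries, with lower lipid-use medians (-0.64 and -0.46), whereas the slow fibre median lies between -0.56 and -0.27 in all 6 KO libraries.

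Myh3 itself was still counted in every KO library. Its level was 2842, 3212 and 3655 CPM (lowest, median and highest) in KO and 3414, 4133 and 4953 CPM in WT. The ranges overlapped, and the change of -0.37 ± 0.09 did not pass (adjusted p = 0.183). The labels do not give the part of Myh3 that was deleted, so a count over the whole gene (chromosome 11, 67078300 to 67102291) does not check the genotype. As a share of the summed length-scaled level (RPKM) of 9 sarcomeric myosin heavy chain genes, Myh3 made up 16.3% ± 0.71 in KO and 21.0% ± 3.90 in WT (SD, n = 6 each). The KO shares ran from 15.3% to 17.2% and the WT shares from 16.9% to 26.2%, so the groups met only at their edges (exact 2-sided permutation p = 0.00649).

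Perinatal myosin held a larger part of the total in KO. Myh8 made up 77.9% ± 1.22 in KO and 72.1% ± 3.49 in WT (SD, n = 6 each), a difference of 5.84 percentage points (exact 2-sided permutation p = 0.00433). Slow myosin held a smaller one: the share of Myh7 was 2.39% ± 0.24 against 3.37% ± 0.12 (SD, n = 6 each), and here the highest KO share, 2.58%, lay under the lowest WT share, 3.15%. Its exact permutation p of 0.00216 is the smallest that 6 against 6 samples can give, and adjusted over these 3 shares each p was 0.00649. The summed level was 3273 ± 234 RPKM in KO and 3334 ± 290 RPKM in WT. Shares of one sum are not independent, and reads shared between these closely similar genes could move them.

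Across all genes, 14 passed the test (0.0973% of those tested), 8 higher in KO (0.0556%) and 6 lower (0.0417%). An unadjusted p under 0.05 was reached by 1091 genes (7.59%), 696 of them higher and 395 lower. In each of the 14 genes the KO and WT libraries did not overlap, which held for 95 genes in all (0.661%). All 14 also passed without KO columns 0 and 1, where 219 of 14598 genes passed (1.5%), 153 higher (1.05%) and 66 lower (0.452%). That pair was set apart by its values in these same data, so the fit without it is no independent check, here or below. The 14 genes passed as well in DESeq2, which called 113 of 13546 genes (0.834%), and in limma's voom with sample weights, which called 26 (0.181%).

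Of 15 slow fibre genes, 4 fell in KO, against 0.0417% of all genes. They were the myosin light chains Myl2 and Myl3, the troponin Tnnc1 and the tropomyosin gene Tpm3. Myl2, the slow and cardiac regulatory light chain (chromosome 5, 122100951 to 122113472), was at 131, 134 and 168 CPM in KO and at 323.5, 349 and 435 CPM in WT. The highest KO library lay far below the lowest WT library. Myl2 fell 2.56-fold, a log2 change of -1.36 ± 0.09 (adjusted p = 9.34e-07). Myl3, the slow essential light chain (chromosome 9, 110763646 to 110769804), was at 67.7, 90.2 and 121 CPM in KO and at 161, 164 and 180.3 CPM in WT. It fell 1.79-fold (-0.84 ± 0.13, adjusted p = 0.0177), and the 2 highest KO values, 118 and 121 CPM, were those of columns 0 and 1. Without these columns its change was -1.05 (adjusted p = 0.000107).

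The other 2, Tnnc1 and Tpm3, encode thin filament proteins. Tnnc1, the calcium-binding troponin C of slow and cardiac muscle (chromosome 14, 31208312 to 31211729), was at 186, 223 and 238 CPM in KO and at 315, 325 and 360 CPM in WT. It fell 1.51-fold (-0.59 ± 0.07, adjusted p = 0.00185). Tpm3, whose muscle product is slow tropomyosin (chromosome 3, 90072649 to 90100902), was at 193, 225.5 and 248 CPM in KO and at 279, 297 and 331 CPM in WT. It fell 1.37-fold (-0.46 ± 0.08, adjusted p = 0.0353). The gene also makes non-muscle tropomyosins, which a count over the gene does not separate. In both genes a clear gap lay between the genotypes.

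**Figure D2:**
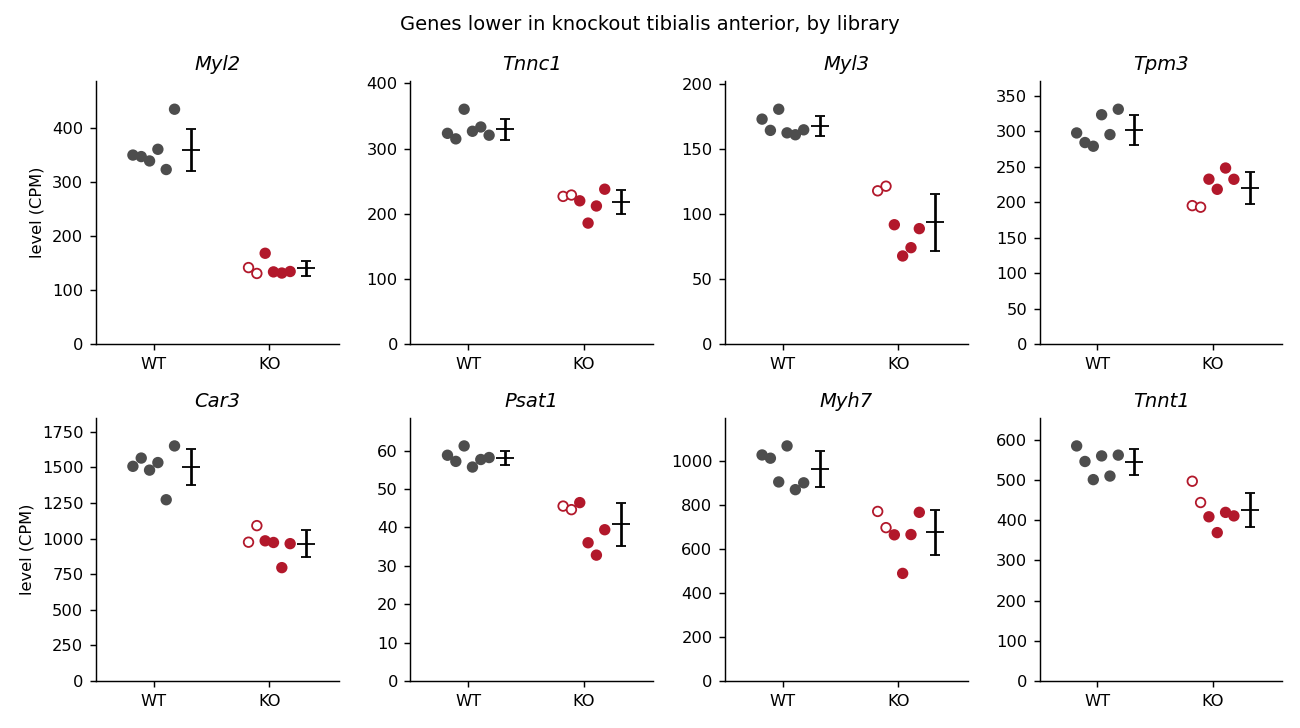
CPM in each library for 8 genes lower in KO, with bars for the group mean ± SD (n = 6 each); hollow points mark KO columns 0 and 1. Myl2, Tnnc1, Myl3, Tpm3, Car3 and Psat1 passed the test, Myh7 and Tnnt1 did not, and in all 8 the KO and WT libraries are separate.

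The promoters of 3 of these 4 genes are shown because the genes fell together; each runs from 250 bases before to 50 after the RefSeq start (RefSeq, GRCm38.p6, all on the plus strand). They lie at chr14:31208062-31208361 for Tnnc1, chr9:110763428-110763727 for Myl3 and chr3:90072401-90072700 for the upstream start of Tpm3. Capitals mark the E-box CANNTG, read by the MyoD family, and the MCAT element CATTCC or GGAATG, read by TEAD factors; both strands were searched, and these do not overlap one another here.
Tnnc1: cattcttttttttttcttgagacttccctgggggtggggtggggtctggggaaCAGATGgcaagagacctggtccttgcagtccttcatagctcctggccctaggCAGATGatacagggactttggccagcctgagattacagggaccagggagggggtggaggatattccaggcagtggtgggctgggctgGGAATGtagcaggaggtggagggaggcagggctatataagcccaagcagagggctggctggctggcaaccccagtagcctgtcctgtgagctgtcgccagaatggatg
Myl3: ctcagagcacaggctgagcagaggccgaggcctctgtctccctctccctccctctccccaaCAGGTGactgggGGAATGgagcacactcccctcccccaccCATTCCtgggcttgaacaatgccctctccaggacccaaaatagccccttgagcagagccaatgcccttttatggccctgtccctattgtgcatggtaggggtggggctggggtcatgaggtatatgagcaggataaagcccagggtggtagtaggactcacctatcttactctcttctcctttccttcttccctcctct
Tpm3: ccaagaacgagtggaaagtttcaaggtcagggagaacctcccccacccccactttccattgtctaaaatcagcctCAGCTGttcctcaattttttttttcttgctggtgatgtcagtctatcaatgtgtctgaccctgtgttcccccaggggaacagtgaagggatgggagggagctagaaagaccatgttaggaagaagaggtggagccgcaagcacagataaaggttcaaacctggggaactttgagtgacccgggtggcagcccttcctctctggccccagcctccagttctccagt
Tnnc1 holds 2 E-boxes and 1 MCAT element, Myl3 holds 1 and 2, and the upstream Tpm3 start holds 1 E-box and no MCAT element. The MEF2 motif (CTA, any 4 bases, TAG) is in none of the 3 windows. The 2 Myl2 windows, which lie 7762 and 8227 bases from the gene start used here, are not shown. Neither they nor the second Tpm3 start, also not shown, hold an MCAT or MEF2 match. Of 32851 mouse promoters of this length, 72.3% hold an E-box, 14.7% an MCAT element and 3.69% the MEF2 motif. These are letter matches and not measured binding.

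Further slow fibre genes had changes below 0 that did not pass. Myh7, slow myosin heavy chain, was at 488.9, 681 and 771 CPM in KO and at 869.7, 959 and 1069 CPM in WT (-0.51 ± 0.10, adjusted p = 0.0806). Tnnt1, slow troponin T, was at 369, 415 and 497 CPM against 501, 553 and 584.6 CPM (-0.36 ± 0.07, adjusted p = 0.109). In neither gene did the groups overlap. Tnni1, slow troponin I, and Myl6b, a slow embryonic light chain, had changes of -0.28 (adjusted p = 0.365) and -0.40 (adjusted p = 0.142) with overlapping groups. These 4 genes passed without KO columns 0 and 1, with adjusted p between 0.00671 and 0.0239.

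The slow list as a whole had 15 tested members. Of these, 4 fell and 0 rose, against 0.0417% and 0.0556% of all genes. An unadjusted p under 0.05 on the lower side was reached by 9, against 2.75% of all genes. The median change was -0.28, against 0.01 over all genes. Without KO columns 0 and 1, 8 fell, against 0.452% of all genes, and the median was -0.39. Other members had changes near 0. Atp2a2, the slow calcium pump, had a change of 0.13 (adjusted p = 0.887), Mb, the oxygen store myoglobin, -0.02 (0.994), Mybpc1, slow myosin-binding protein C, 0.02 (0.977), and Myh7b, a second slow-type myosin, -0.05 (0.987). The calcium buffer Casq2 (-0.16), the Z-disc protein Myoz2 (-0.16) and the pump inhibitor Pln (-0.28, at or under 1.00 CPM) did not pass either. In a bulk sample, fewer slow fibres and less slow-gene RNA per fibre cannot be told apart.

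Both other genes that fell encode enzymes. Car3, the muscle carbonic anhydrase abundant in slow fibres (chromosome 3, 14863538 to 14872351), was at 796, 974 and 1091 CPM in KO and at 1273, 1521 and 1651 CPM in WT. It fell 1.56-fold (-0.64 ± 0.08, adjusted p = 0.00347). Psat1, the aminotransferase of the second step of serine synthesis (chromosome 19, 15904678 to 15947337), was at 32.8, 42.0 and 46.4 CPM in KO and at 55.7, 57.9 and 61.2 CPM in WT. It fell 1.43-fold (-0.51 ± 0.09, adjusted p = 0.0398). The WT libraries of Psat1 were unusually close to each other, with an SD of 1.84 CPM against 5.63 CPM in KO.

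Psat1 belongs to a list of amino acid genes, chosen with its call known. Of 29 tested genes of serine synthesis and the ATF4 response, 1 fell (against 0.0417% of all genes) and 0 rose. A change below 0 was seen in 22, against 6893 of all 14383 genes. An unadjusted p under 0.05 was reached by 12 on the lower side and 2 on the higher, against 2.75% and 4.84% of all genes. The median was -0.17. Asns, asparagine synthetase, was at 34.8 to 65.4 CPM in KO and 66.4 to 91.0 CPM in WT (-0.66 ± 0.14, adjusted p = 0.107). Gars, glycyl-tRNA synthetase, had a change of -0.41 ± 0.09 (adjusted p = 0.127) and also had separate groups. Mthfd2, a mitochondrial folate enzyme, was at -0.97 (adjusted p = 0.357) and Phgdh, the first enzyme of serine synthesis, at -0.45 (0.542). Opposite in sign were Shmt1, the cytosolic serine hydroxymethyltransferase (0.46, adjusted p = 0.0792, no overlap), and Cth, cystathionine gamma-lyase (1.19, 0.166). Without KO columns 0 and 1, 6 fell (Psat1, Asns, Gars, Aars, Pycr1 and Aldh18a1) and Shmt1 rose. Over all genes in that fit, 0.452% fell and 1.05% rose.

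The 8 genes that rose have roles in signalling, transcription, fuel use, contraction and protein turnover. Mchr1, the receptor of melanin-concentrating hormone (chromosome 15, 81235499 to 81238963), was at 17.8, 21.6 and 23.3 CPM in KO and at 6.73, 9.75 and 14.4 CPM in WT. It rose 2.13-fold (1.09 ± 0.15, adjusted p = 0.00678), with its smallest KO value above every WT value. Pde4d, a phosphodiesterase that breaks down cAMP (chromosome 13, 108449948 to 109953461), was at 57.2, 69.5 and 126 CPM in KO and at 32.3, 40.9 and 45.7 CPM in WT. It rose 1.99-fold (0.99 ± 0.16, adjusted p = 0.0297). Mn1, a transcriptional coregulator (chromosome 5, 111417362 to 111457033), was at 32.02, 45.7 and 62.3 CPM in KO and at 21.3, 23.7 and 28.7 CPM in WT. It rose 1.87-fold (0.91 ± 0.14, adjusted p = 0.0297). In all 3 the groups were separate, and Pde4d spread most within KO.

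Fuel genes were among them. Slc2a1, the glucose transporter GLUT1 (chromosome 4, 119108711 to 119137330), was at 14.7, 18.9 and 23.6 CPM in KO and at 8.05, 10.3 and 12.5 CPM in WT. It rose 1.85-fold (0.89 ± 0.14, adjusted p = 0.0297); columns 0 and 1 held the 2 highest values, and the change was 0.73 (adjusted p = 0.0239) without them. Lpin1, the phosphatidate phosphatase and coregulator of fatty acid oxidation (chromosome 12, 16535669 to 16589770), was at 45.5, 58.9 and 123 CPM in KO and at 22.2, 27.8 and 31.1 CPM in WT. It rose 2.40-fold (1.26 ± 0.21, adjusted p = 0.0297). The highest KO value, in column 3, was far above the others, and no KO library overlapped WT.

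The remaining 3 were Klhl38, Mylk2 and Usp2. Klhl38, a Kelch-family protein of muscle (chromosome 15, 58314573 to 58324169), was at 8.51, 11.4 and 23.6 CPM in KO and at 2.46, 4.53 and 6.26 CPM in WT. It rose 2.86-fold (1.52 ± 0.26, adjusted p = 0.0401), the largest change among the 14. Mylk2, the skeletal myosin light chain kinase (chromosome 2, 152911352 to 152923068), was at 241.5, 347 and 431 CPM in KO and at 153, 207 and 219 CPM in WT. It rose 1.69-fold (0.75 ± 0.13, adjusted p = 0.0480), and its 2 lowest KO values were those of columns 0 and 1. Usp2, a deubiquitinase under clock control (chromosome 9, 44067021 to 44095627), was at 216, 227 and 236 CPM in KO and at 152, 178 and 190.3 CPM in WT. It rose 1.29-fold (0.37 ± 0.06, adjusted p = 0.0401), the smallest change among the 14. Of the 14 genes, 8 have a span that overlaps another annotated gene (Klhl38, Mn1, Myl2, Pde4d, Psat1, Slc2a1, Tnnc1 and Usp2). The sources used here do not say whether counting used the strand.

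**Figure D3:**
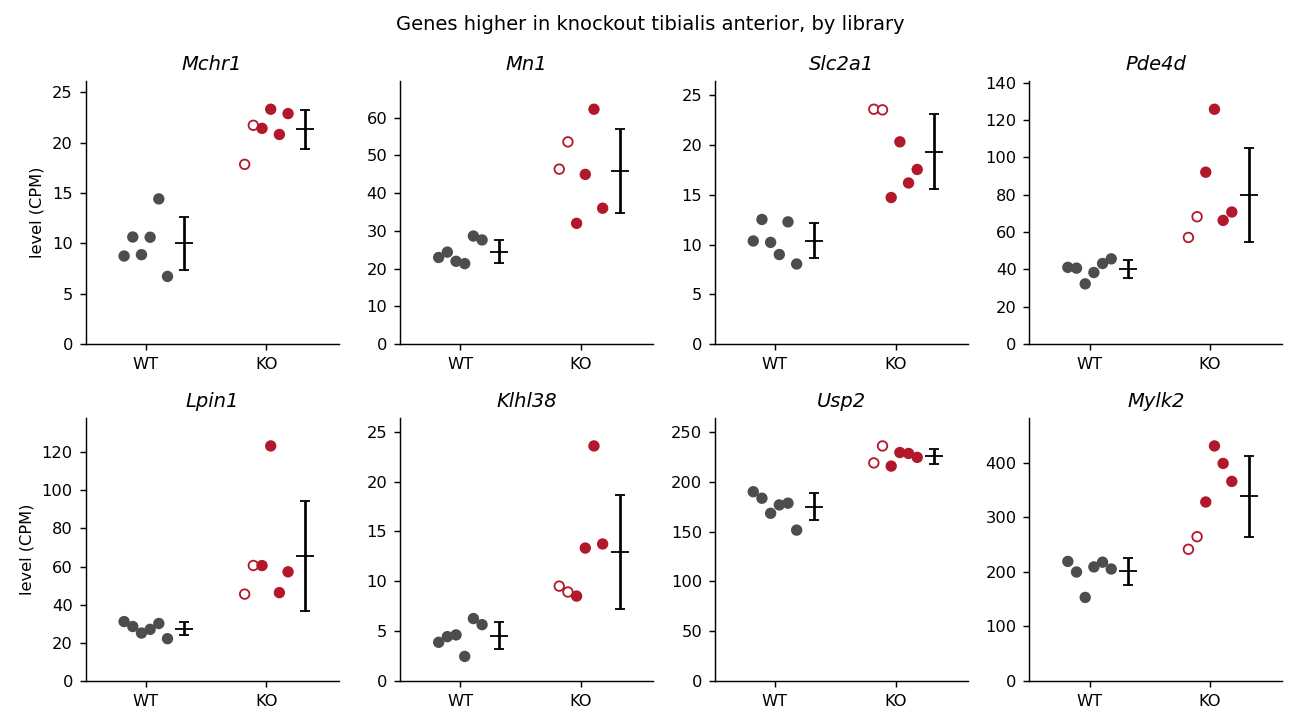
CPM in each library for the 8 genes that rose in KO, with bars for the group mean ± SD (n = 6 each); hollow points mark KO columns 0 and 1. In every panel the lowest KO library lies above the highest WT library, and the KO libraries of Lpin1 run from 45.5 to 123 CPM.

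The promoter of Slc2a1 is shown as an example from the genes that rose with the smallest p (chr4:119108495-119108794, GRCm38.p6, plus strand). Capitals mark the GC box GGGCGG or CCGCCC, which SP-family factors read.
Slc2a1: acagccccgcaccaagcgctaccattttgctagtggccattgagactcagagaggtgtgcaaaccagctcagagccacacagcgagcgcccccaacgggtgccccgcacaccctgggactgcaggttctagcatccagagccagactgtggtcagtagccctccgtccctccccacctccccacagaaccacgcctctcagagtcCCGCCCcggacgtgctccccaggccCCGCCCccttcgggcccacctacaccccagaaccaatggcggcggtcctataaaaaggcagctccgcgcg
It holds 2 GC boxes and no E-box, MEF2, MCAT, CRE (TGACGTCA) or FoxO (TGTTTAC) match on either strand. A GC box is in 35.7% of the promoters, a CRE in 1.79% and the FoxO motif in 3.65%. Of the other genes that rose with the smallest p, Mchr1 and Pde4d had windows without a GC box, MEF2, MCAT, CRE or FoxO match. The Pde4d window lies 204229 bases from the gene start used here, and Mn1 had no promoter entry.

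The calls differed in how far they rested on single libraries. Myl2, Tnnc1, Car3 and Mchr1 passed whichever of the 12 libraries was left out. Myl3 passed in 9 of the 12 fits and was lost without WT column 0, 1 or 2. Pde4d passed in 5 and was lost without KO column 2 or any WT column, and Lpin1 passed in 5 and was lost without KO column 1 or any WT column. Mn1 and Slc2a1 passed in 5 fits and were lost without KO column 1 or 3 or WT column 0, 1, 2, 3 or 5. Klhl38 passed only without KO column 0, 1, 2 or 4, Psat1 only without KO column 0, 2 or 4, Tpm3 only without KO column 0 or 4, Mylk2 only without KO column 0 or 1, and Usp2 only without KO column 0. With a term for sex 8 genes passed (0.0556%), and Klhl38, Mylk2, Psat1, Slc2a1, Tpm3 and Usp2 did not. In a single fit of all 48 libraries 21 of 15090 genes passed in tibialis anterior (0.139%), without Car3, Mylk2, Slc2a1 and Usp2. Leaving out KO column 0 took the number of genes past the test to 26. Leaving out WT column 0, 1 or 2 took it to 4, WT column 5 to 5, WT column 3 to 6, KO column 3 to 7, KO column 1 or WT column 4 to 8, and KO column 5 to 9.

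Genes that respond to glucocorticoids had changes above 0, and their levels were highest in 4 of the 6 KO libraries. The list was chosen with earlier results of these data known, so its counts are no independent support. All 18 tested members of this list had a change above 0, against 52.1% of all genes. Of them 13 had an unadjusted p under 0.05 (4.84% of all genes on the higher side), and 0 passed after adjustment. The median was 0.60. Fkbp5, a chaperone of the glucocorticoid receptor, was at 72.6, 179.7 and 220.2 CPM in KO and at 25.9, 81.1 and 142.5 CPM in WT (1.01 ± 0.36, adjusted p = 0.453). Klf15, a glucocorticoid-induced factor, was at 34.4 to 56.4 CPM against 8.89 to 33.8 CPM (1.06 ± 0.27, adjusted p = 0.214). The first overlapped between genotypes and the second did not. By library the list median, on the log2 scale against the WT mean, was 0.15 and 0.23 in KO columns 0 and 1, between 0.68 and 0.88 in the other KO libraries, and between -0.57 and 0.47 in WT, with WT columns 3 and 5 at the lower end. Without KO columns 0 and 1 the median was 0.77 and 7 members rose, against 1.05% of all genes. The 7 were Tsc22d3, Klf9, Sgk1, Cebpb, Glul, Errfi1 and Hif3a.

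In the FoxO and atrophy list, too, KO columns 0 and 1 had the lowest KO medians. These were 0.07 and 0.12, within the WT range of -0.24 to 0.16. Of 23 tested genes 1 rose (Klhl38, around which the list was partly chosen) and 0 fell, against 0.0556% and 0.0417% of all genes. A change above 0 was seen in 19, against 52.1% of all genes. An unadjusted p under 0.05 on the higher side was reached by 13, against 4.84%. The median change was 0.28. Fbxo32, the ubiquitin ligase atrogin-1, was at 33.1, 73.6 and 126 CPM in KO and at 14.7, 30.7 and 36.6 CPM in WT (1.41 ± 0.32, adjusted p = 0.135). Trim63, the ligase MuRF1, was at 54.4, 79.5 and 178 CPM against 38.9, 44.2 and 51.6 CPM (1.00 ± 0.23, adjusted p = 0.138). Columns 0 and 1 held the 2 lowest KO values of both genes, and only Fbxo32 overlapped with WT. Without them 6 genes rose, against 1.05% of all genes, and the median was 0.43. The 6 were Fbxo32 (1.75, adjusted p = 0.00706), Trim63 (1.25, 0.0109), Foxo1, Foxo3, Fbxo31 and Klhl38.

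**Figure D4:**
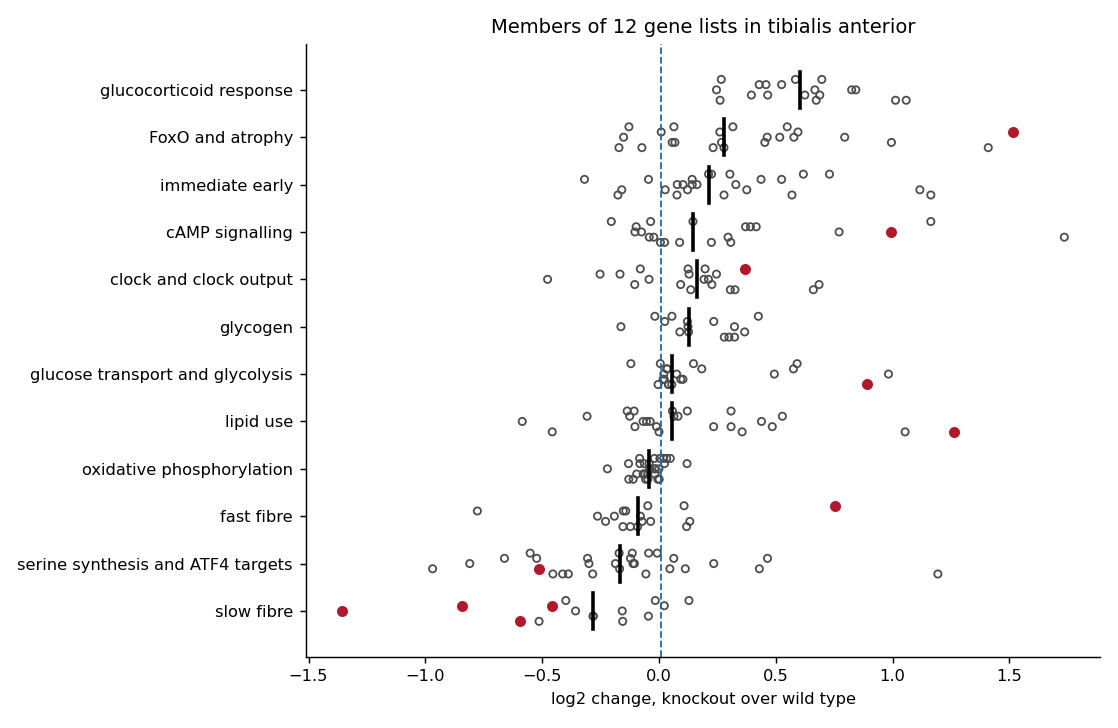
Log2 change (KO over WT) of each tested member of 12 gene lists; filled points passed the test, black bars are list medians and the dashed line is the median of all genes. Slow fibre genes lie mostly below 0 (median -0.28) and glucocorticoid-responsive genes all above it (median 0.60), although 0 of the latter passed. The lists were chosen with earlier results of these data known.

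Among fuel genes, KO columns 0 and 1 differed from the other KO libraries. The fuel lists were chosen with earlier results of these data known. In lipid use, 1 of 25 genes rose (Lpin1) and 0 fell, against 0.0556% and 0.0417% of all genes. The median was 0.06. Without KO columns 0 and 1 the median was 0.30 with 4 genes higher (Lpin1, Lpl, Plin5 and Pnpla2), against 1.05% of all genes. Pnpla2, the triglyceride lipase ATGL, was at 116 and 124 CPM in columns 0 and 1, up to 576 CPM in the other KO libraries and between 213 and 262 CPM in WT. Its change was 0.53 ± 0.31 (adjusted p = 0.782) with all libraries and 0.94 (adjusted p = 0.00146) without the pair. In glucose transport and glycolysis, 1 of 21 genes rose (Slc2a1) and 0 fell, against the same 0.0556% and 0.0417% of all genes. The median was 0.05, and -0.08 without the pair. Slc2a4, the insulin-responsive transporter GLUT4, was at 196 to 244 CPM in KO and 133 to 194 CPM in WT, without overlap (0.49 ± 0.10, adjusted p = 0.0806; 0.59, adjusted p = 0.0110 without the pair). Pfkl, the liver-type phosphofructokinase, was at 77.1 and 76.3 CPM in columns 0 and 1, while its KO median was 16.2 CPM and its WT range 12.1 to 23.1 CPM. Hk2, the muscle hexokinase, was at 140 and 152 CPM in them, against 59.6 to 83.5 CPM in WT. Of 15 glycogen genes 0 passed, with a median of 0.13. Of these 5 had an unadjusted p under 0.05 on the higher side, against 4.84% of all genes. Of 30 genes of oxidative phosphorylation 0 passed, with a median of -0.04.

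The cAMP, clock and growth lists were chosen with their called genes known. Over all genes, 0.0556% rose, 4.84% had an unadjusted p under 0.05 on the higher side and 52.1% had a change above 0. Pde4d was the 1 of 21 cAMP genes that rose (7 with an unadjusted p under 0.05 on the higher side, median 0.15). Nr4a1, an orphan receptor induced by cAMP and activity, was at 42.8, 86.3 and 159 CPM against 30.8, 42.0 and 65.5 CPM (1.16 ± 0.27, adjusted p = 0.152). Usp2 was the 1 of 20 clock genes that rose (5 with an unadjusted p under 0.05 on the higher side, median 0.16), and Nfil3, a repressor in clock output, had separate groups (0.66 ± 0.15, adjusted p = 0.136). Of 25 immediate early genes 0 passed, 21 had a change above 0 and the median was 0.21.

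Few genes of the fast, developmental and growth lists passed. Mylk2 was the 1 of 17 fast fibre genes that rose, against 0.0556% of all genes, and 0 fell. A change above 0 was seen in 4 of the 17, against 52.1% of all genes, and the list median was -0.09. An unadjusted p under 0.05 was reached by 1 on the higher side and 3 on the lower, against 4.84% and 2.75% of all genes. Pvalb, the fast-fibre calcium buffer, was at 38.7, 62.4 and 139 CPM in KO and at 90.9, 107 and 188 CPM in WT (-0.78 ± 0.26, adjusted p = 0.396), and passed without KO columns 0 and 1 (-1.18, adjusted p = 0.0191). Myh8 had a change of 0.08 ± 0.08 (adjusted p = 0.891). None of 8 developmental isoforms, 17 myogenic regulators, 12 fusion genes, 24 calcium-handling genes, 24 strain sensors and chaperones, 18 neuromuscular junction genes or 16 FGF feedback genes passed with all libraries, and their medians lay between -0.06 and 0.11. On the growth list 1 of 23 genes rose, against 0.0556% of all genes. It was the transcriptional coregulator Mn1, and the list was chosen with its call known. Of 23 proliferation genes 0 passed, with a median of -0.05. Without KO columns 0 and 1 the median was -0.26 and 4 fell (Mcm2, Mcm5, Mcm6 and Rrm2), against 0.452% of all genes.

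None of the members of the 15 marker lists, for muscle fibres, other tissues or position, passed with all libraries. Fibroblast markers summed to between 26625 and 44950 CPM in KO, with the highest value in column 0, and between 30373 and 39873 CPM in WT. In the other 14 lists, too, the ranges of the KO and WT sums overlapped. Single KO libraries lay above every WT library in some of them. The 6 measured neutrophil markers summed to 16.2, 15.1 and 14.1 CPM in KO columns 0, 1 and 3, against 2.67 to 9.25 CPM in WT, and the median change of the 4 tested was 0.68, or -0.02 without columns 0 and 1. The 3 measured adipocyte markers summed to 314 and 373 CPM in KO columns 3 and 4, against 204 to 259 CPM in WT, while defining fat genes such as Adipoq and Plin1 were not in the table. The part of these cells in the results was not tested. The 8 hindlimb position genes summed to 131 to 184.6 CPM in KO and 139 to 164 CPM in WT. The liver list had a median change of 0.98 with all libraries and of -1.09 without KO columns 0 and 1. Alb, the main liver transcript, stood at 38.1 and 47.5 CPM there, whereas its WT range was 0.900 to 11.7 CPM.

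Uck2 and Ces5a passed a test of whether the change differed from that in the other muscles. In a single fit of all 48 libraries, the change in tibialis anterior minus the mean change in the other 3 muscles passed for 2 of 15090 genes (0.0133%), both lower in tibialis anterior, and 329 genes (2.18%) had an unadjusted p under 0.05. DESeq2 called 5 of the 3388 genes to which it gave an adjusted p (0.148%). Uck2, a uridine-cytidine kinase, had a change of -0.20 ± 0.09 in tibialis anterior, 0.29 ± 0.09 in quadriceps, 0.41 ± 0.09 in gastrocnemius and 0.34 ± 0.09 in diaphragm, a difference of -0.54 ± 0.10 (adjusted p = 0.0353). Ces5a, a carboxylesterase, had changes of -0.83 ± 0.28, 0.37 ± 0.28, 1.85 ± 0.32 and 0.47 ± 0.29 in the same order, a difference of -1.73 ± 0.33 (adjusted p = 0.0377), at 0.923 to 2.41 CPM in KO and 1.92 to 3.57 CPM in WT. In tibialis anterior neither gene passed on its own. The difference no longer passed for Uck2 without KO column 0, 1, 2 or 4 or WT column 0, 1 or 2 (adjusted p up to 0.218), nor for Ces5a without KO column 0, 1, 2, 4 or 5 or WT column 0, 1, 2 or 4 (up to 0.218). With KO columns 0 and 1 of all 4 muscles left out together, the adjusted p was 0.338 for Uck2 and 0.187 for Ces5a. The columns of these numbers in the other muscles are not known to come from the same animals.

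Myl2, Myl3, Tnnc1 and Tpm3 had changes below 0 in all 4 muscles, though that of Tnnc1 in gastrocnemius was only -0.02. Myl2 changed by -1.36 in tibialis anterior and -1.16 ± 0.15 in quadriceps, with values of -0.17 ± 0.15 in gastrocnemius and -0.34 ± 0.15 in diaphragm; the contrast was -0.80 ± 0.17 (adjusted p = 0.117). Myl3 was at -0.84, -1.01, -0.58 and -0.50 (contrast -0.15 ± 0.17) and Tpm3 at -0.46, -0.56, -0.39 and -0.33 (contrast -0.03 ± 0.11) in the same order. Tnnc1 was at -0.60, -0.28, -0.02 and -0.25 (contrast -0.42 ± 0.11, adjusted p = 0.571) and Psat1 at -0.52, -0.13, -0.07 and 0.01 (contrast -0.45 ± 0.12, adjusted p = 0.693). Csrp3, the stretch-related muscle LIM protein, went the other way round: its change was 0.08 ± 0.19 in tibialis anterior, where KO and WT overlapped, and 1.13, 0.96 and 0.99 in the other muscles (adjusted p = 0.00136, 0.0120 and 0.00917), with a contrast of -0.95 ± 0.22 (adjusted p = 0.163). For none of these 6 genes was the difference between muscles past the threshold. Columns could not be tied to animals, so any muscles of 1 animal entered as separate samples.

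**Figure D5:**
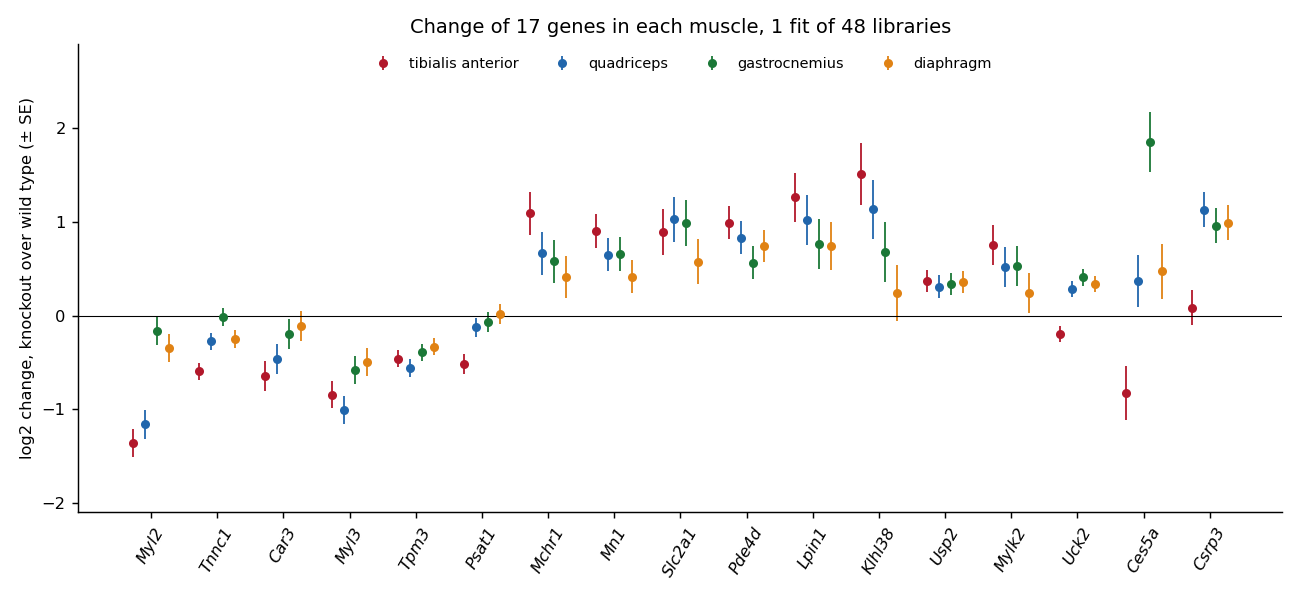
Log2 change ± SE (KO over WT) of 17 genes in 4 muscles, from 1 fit of all 48 libraries. Myl2 is at -1.36 in tibialis anterior and -1.16 in quadriceps against -0.17 in gastrocnemius, while Csrp3 is at 0.08 in tibialis anterior against 0.96 to 1.13 in the others.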

How the data were processed

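Polyadenylated RNA of newborn tibialis anterior was sequenced from flash-frozen muscle after lipid-tissue RNA extraction and stranded library preparation, per the labels' protocols. The submitters' processing notes name Picard and the build mm10; the aligner was not given in the sources used here. Deposited counts hold, per the file headers, unnormalized exon counts per gene made with USeq by the authors. Per the file headers, the authors' log2 ratios and their score (-10 times the log10 of an adjusted p) came from DESeq2, and these were used only for single exons and the authors' short lists. The deposited tables also hold 96 per-sample columns of other scales, which were not used. The authors left out 22660 genes with low counts and Acta1, flagged for high counts, although a kept gene reached 927833 counts.

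Counts of the 6 KO and 6 WT libraries, grouped by genotype and muscle in the column names, went into the quasi-likelihood F test of edgeR 4.0.16 (R 4.3.3) after filterByExpr and TMM scaling; SE is the size of the log2 change divided by the square root of F. The contrast with the other muscles used 1 mean for each of the 8 groups of 48 libraries. CPM values were scaled by TMM factors, and RPKM divides them by exonic length. Myosin shares were tested by exact permutation in scipy 1.17.1. No library was a copy of another: over 30 pairs within a genotype, chi-square divided by its degrees of freedom was 5.33 at the least and 47.8 at the most. Both fits were also run on simulated counts with known changes. Those counts were drawn independently for each library, so they hold no structure such as that of KO columns 0 and 1 and cannot test its effect. Alternatives were RLE and upper-quartile factors, no count filter, DESeq2 1.42.0 and limma 3.58.1 (voom with sample weights). A sex term and 1 fit of 48 libraries were also used. Others left out single libraries, or KO columns 0 and 1 together. For the contrast, single libraries were those of tibialis anterior, and the pair was left out in all 4 muscles. The pair was set apart by its values in these data, and the alternatives for the myosin shares were chosen after seeing the data.

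The comparison, gene lists and marker lists were chosen with earlier results of these data known. Named were Myh3, genes past the test, the next 8 by p in each direction, the authors' short lists, all slow fibre genes, up to 3 genes of each other list by p, and the first genes of the contrast, with predicted genes passed over. Genes named for single-library values or to describe a list (such as Pfkl, Pnpla2, Alb, Fkbp5, Trim63 and Csrp3) and those listed as past the test without KO columns 0 and 1 were named after their values were seen. Promoters (RefSeq, GRCm38.p6) were searched by letters. Coordinates are those of the deposited tables, with starts raised by 1. Of 15821 genes, 15631 are in GENCODE M21.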

Additional observations from a re-analysis of the deposited data

Results flagged for a closer look

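Single libraries stood far from the rest of their group in 12 of 230 groups of 6 examined, or 5.22%, where chance gives about 1 in 20. KO column 3 was the high value for Lpin1 (123 CPM), Trim63 (177.6 CPM), Eya1, a myogenic coactivator (23.8 CPM) and Musk, the agrin co-receptor (40.7 CPM), and the low value for Jph2, a junctional membrane protein (172 CPM). KO column 4 was high for Klhl38 (23.6 CPM) and KO column 2 for Myl2 (168 CPM). KO column 5 was high for Myh6 (32.3 CPM) and KO column 1 for Sdhb, a subunit of succinate dehydrogenase (246 CPM). In WT, column 2 was the low value of Mylk2 (153 CPM), column 5 the high value of Myl2 (435 CPM), and column 4 the high value of Fstl1 (1547 CPM).

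The change in tibialis anterior differed from the mean of the other muscles for Uck2 (-0.54 ± 0.10, edgeR adjusted p = 0.0353) and Ces5a (-1.73 ± 0.33, edgeR adjusted p = 0.0377), both by the test of the difference itself.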

How the results depend on the processing

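All 14 calls also passed with RLE and upper-quartile factors, without a count filter, with DESeq2, with voom, and without KO columns 0 and 1. The number of genes past the test was 113 with DESeq2, 26 with voom, 8 with a sex term, 219 without KO columns 0 and 1, and 4 to 26 when single libraries were left out; the cause was not tested. In 1 fit of all 48 libraries 21 passed, without Car3, Mylk2, Slc2a1 and Usp2. The contrast with the other muscles gave 5 genes with DESeq2 and 4 with a sex term. It gave 1 without KO columns 0 and 1 of all 4 muscles, and 0 to 3 without single tibialis anterior libraries. Changes that did not pass turned sign. Without KO columns 0 and 1, Pfkl went from 0.98 to -0.39, Alb from 1.23 to -1.40 and Cmbl from 0.10 to -0.019; Alb was at -0.63 with voom. Near 0, Mb turned with voom (0.048) and Csrp3 with a sex term (-0.047). Without single libraries Myh7b ran from -0.20 to 0.084, Mybpc1 from -0.0020 to 0.066, Mb from -0.078 to 0.047 and Csrp3 from -0.059 to 0.20. The median of all genes moved by at most 0.01 under any scaling. The myosin shares kept their direction and side of 0.05 in all 39 alternative values. Genes near 1 CPM, such as Pln, Cth and Ces5a, rest on few counts. No paired analysis was possible because the count columns, numbered 0 to 5, are not tied to the replicate numbers in the labels.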

Other observations

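In the authors' deposited table, 398 tibialis anterior genes carry a value for the exon that differed most between genotypes, and 14 of these, or 3.52%, have an adjusted p under 0.05. Per the file headers, these exon ratios are the largest of a gene's exons after correction for differences in counts, so they are not on the scale of the gene changes beside them. That test pooled reads and has no replicate check. In the authors' deposited table the Ttn exon at chromosome 2, 76900757 to 76901035 (exon 51 of Ttn-203), was higher in KO by a log2 ratio of 1.34, while the gene count of titin, the sarcomere's elastic filament, had a log2 change of -0.03. The authors' deposited table gives 1.26 for exon 50 of Neb-202, of the thin-filament ruler nebulin, whose gene count had a change of 0.04. For Myl2 the authors' deposited table gives -1.46 for the last exon, 8 of 8 in Myl2-203, which is no second measure of the gene change of -1.36. For Pde4d, the authors' deposited table gives -1.74 (adjusted p = 0.00264) for exon 1 of Pde4d-218 (chromosome 13, 109260654 to 109260945), although the gene as a whole rose by 0.99.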
